A study of Mus musculus with 21 samples.

Results

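Spi1, Irf1, Irf4, Irf5, Irf8, Cebpa, Cebpb, Maf and Zeb2 are 9 genes for transcription factors that set up or tune the monocyte and macrophage program. They were chosen by symbol, with no threshold on a measured value, but with earlier results of these data known. They are 9 of the 23420 genes in the count table. Spi1, which encodes PU.1, is listed there under its older symbol Sfpi1, and the other 8 are listed under their present symbols. PU.1, an ETS factor, opens myeloid enhancers and is needed for the monocyte and granulocyte lineages. C/EBPα pairs with it in granulocyte and monocyte progenitors, whereas C/EBPβ is the C/EBP of inflammatory and emergency responses. IRF8 directs progenitors toward monocytes and dendritic cells, IRF1 is the classical factor induced by interferon-γ, IRF5 drives inflammatory cytokine genes downstream of Toll-like receptors, and IRF4 acts in alternatively activated macrophages, dendritic cells and plasma cells. MAF marks tissue macrophages that make IL-10 and complement C1q, and ZEB2, a zinc finger repressor of E-cadherin, supports monocyte and macrophage identity.

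RNA was measured in inflammatory monocytes (IMs) of adult mice in 5 groups. BM IMs came from the bone marrow of healthy FVB mice and of healthy DBA2 mice (n = 3 libraries each). LN2E1 tumor-infiltrating IMs (TIMs) came from the primary tumor and from lymph node metastases of FVB mice that received 500000 cells of the LN2E1 squamous lung cancer line in the lung (n = 5 each), and LN4K1 TIMs came from the lungs of DBA2 mice that received 300000 cells of the LN4K1 squamous lung cancer line through a vein (n = 5). IMs were enriched with a monocyte kit and sorted as CD45+ CD11b+ Ly6Chi cells without Ly6G or SiglecF. Strain, cell line, injection route and tumor site change together between the LN2E1 and LN4K1 models and cannot be told apart, and tumor tissue is compared with marrow, so that the effect of the tumor and that of leaving the marrow cannot be told apart either. The study's methods call the libraries of a group technical replicates, and no source used here says that they came from separate mice. All p-values therefore measure the spread between these libraries, not the spread between animals.

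The libraries held between 80772922 and 101043568 counts, and the number of genes with at least 10 counts ran from 11047 in lymph node TIM replicate 1 to 14512 in primary tumor TIM replicate 4. No pair of the 36 pairs of libraries within a group was identical. Monocyte markers (Ly6c2, Ccr2, Itgam and 5 others) were abundant in every library, with a summed level between 40800 and 130000 CPM (counts scaled to the effective library size). The highest sum came from LN4K1 lung TIM replicate 3, and this library and lymph node TIM replicate 1 detected fewer genes than the others of their groups. These monocyte sums mainly follow Lyz2, with a mean log2 CPM of 15.5, before F13a1 at 11.5. Of the 8 markers, 4 rose and 2 fell in primary tumor TIMs, and 3 rose and 3 fell in lymph node TIMs. In lung TIMs 4 rose and 1 fell. Of all genes tested, 33.3%, 20.2% and 13.9% rose in primary tumor, lymph node and lung TIMs, and 28.6%, 17.2% and 11% fell. The same shares stand beside the marker counts that follow. Ly6c2 itself was lower in every TIM group, with log2 fold changes of -1.30 (primary tumor), -1.17 (lymph node) and -0.88 (lung). Markers of neutrophil precursors (Elane, Mpo and 6 others) summed to 2980.0 to 3700.0 CPM in FVB and 2660.0 to 3050.0 CPM in DBA2 BM IMs, against 121 to 342 CPM in lung, 34.9 to 129 CPM in primary tumor and 18.7 to 107 CPM in lymph node TIMs. Markers of mature neutrophils (Cxcr2, Mmp9, Retnlg, Il1r2, Csf3r and Stfa2l1) summed to 284 to 351 CPM in FVB and 365 to 512 CPM in DBA2 BM IMs. Their sums were 730 to 1160 CPM in primary tumor, 571 to 841 CPM in lymph node and 362 to 622 CPM in lung TIMs. These neutrophil sums mainly follow Csf3r, with a mean log2 CPM of 8.71, before Il1r2 at 5.73. Of the mature neutrophil markers tested, 4 of 6 rose and 0 fell in primary tumor TIMs. In lymph node TIMs 3 of 5 rose and 1, Retnlg, fell, and in lung TIMs 1 rose and 1 fell. Fibroblast markers (Col1a1, Col1a2, Col3a1, Pdgfra and Dcn) summed to 361 to 1100.0 CPM in primary tumor TIMs, where 5 of 5 rose, against 0 to 0.193 CPM in FVB BM IMs, and to 0.836 to 87.1 CPM in lymph node TIMs. In lung TIMs they summed to 1.31 to 42.9 CPM, against 0.0299 to 0.359 CPM in DBA2 BM IMs. Eosinophil markers (Prg2, Epx and 4 others) went the other way, from 642 to 1190.0 CPM in FVB and 446 to 1140.0 CPM in DBA2 BM IMs to 14.4 to 24.6, 9.37 to 35.0 and 5.87 to 74.7 CPM in primary tumor, lymph node and lung TIMs. The part of these cell types in the changes of the 9 genes was not tested. In such bulk samples, fewer cells of a type and less RNA per cell cannot be told apart.

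Irf1 rose in every TIM group against BM IMs of the same strain, and it was the member with the largest rise in both LN2E1 comparisons. In lung TIMs its log2 fold change of 1.86 ± 0.16 stood level with that of Maf (1.83 ± 0.60), which did not pass the test. Irf8, Spi1 and Maf also rose in both LN2E1 TIM groups, while Cebpb fell there. In LN4K1 lung TIMs the other member that rose was Irf4. Irf5, Cebpa and Zeb2 did not pass the test in any TIM comparison.

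In LN2E1 primary tumor TIMs 4 of the 9 members rose and 1 fell at an adjusted p under 0.05 (edgeR quasi-likelihood test, Benjamini-Hochberg adjustment over all genes tested), where 33.3% of all 14569 genes tested rose and 28.6% fell. By the study's stricter thresholds (a log2 fold change above 1 in size and adjusted p under 0.0001) 1 member, Irf1, was a differentially expressed gene (DEG), against 12.9% of all genes. In lymph node TIMs 4 members rose and 1 fell, against backgrounds of 20.2% and 17.2%, and 2 members, Irf1 and Irf8, were DEGs, against 5.71%. In LN4K1 lung TIMs 2 members rose and 0 fell, against 13.9% and 11%, and Irf1 was the 1 DEG, against 2.97%. With 9 members, these counts lie within 3 genes of what those shares would give. The median log2 fold change of the members was 0.42 in primary tumor, 0.36 in lymph node and 0.42 in lung TIMs, beside 0.08, -0.04 and 0.03 over all genes tested. All 9 members passed the filter on low counts in every comparison. Both LN2E1 comparisons share the 3 FVB libraries, so they are not independent of each other.

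**Figure D1:**
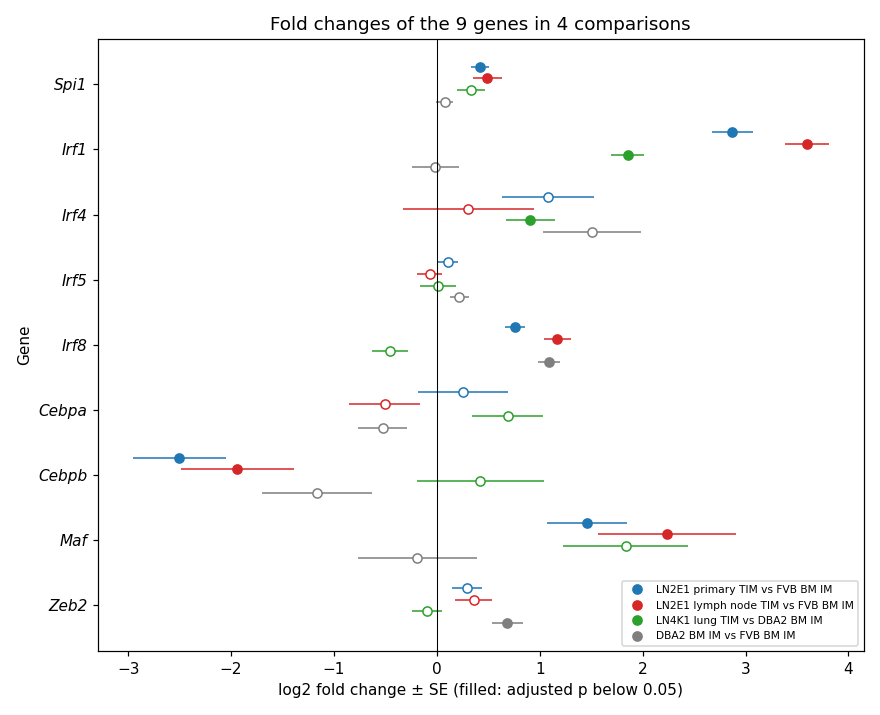
Log2 fold changes (x axis) of the 9 genes (y axis) in LN2E1 primary tumor TIMs, LN2E1 lymph node TIMs and LN4K1 lung TIMs against BM IMs of the same strain, and in DBA2 against FVB BM IMs. Bars give the approximate standard error and filled points have an adjusted p under 0.05; Irf1 lies at 2.87, 3.60 and 1.86 in the 3 TIM comparisons and at -0.01 between the strains.

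Per length of exon, Irf5 and Spi1 were the most abundant members in BM IMs. Irf5 reached 249 and Spi1 241 RPKM (CPM per kilobase of exon) in FVB BM IMs, where Irf1 was at 32.4 RPKM. In lymph node TIMs Irf1 ranked first at 392 RPKM, ahead of Spi1 at 339 and Irf5 at 238 RPKM. Maf and Irf4 were the lowest members in all 5 groups, Maf at 0.156 RPKM in FVB BM IMs and 0.737 RPKM in lymph node TIMs.

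**Figure D2:**
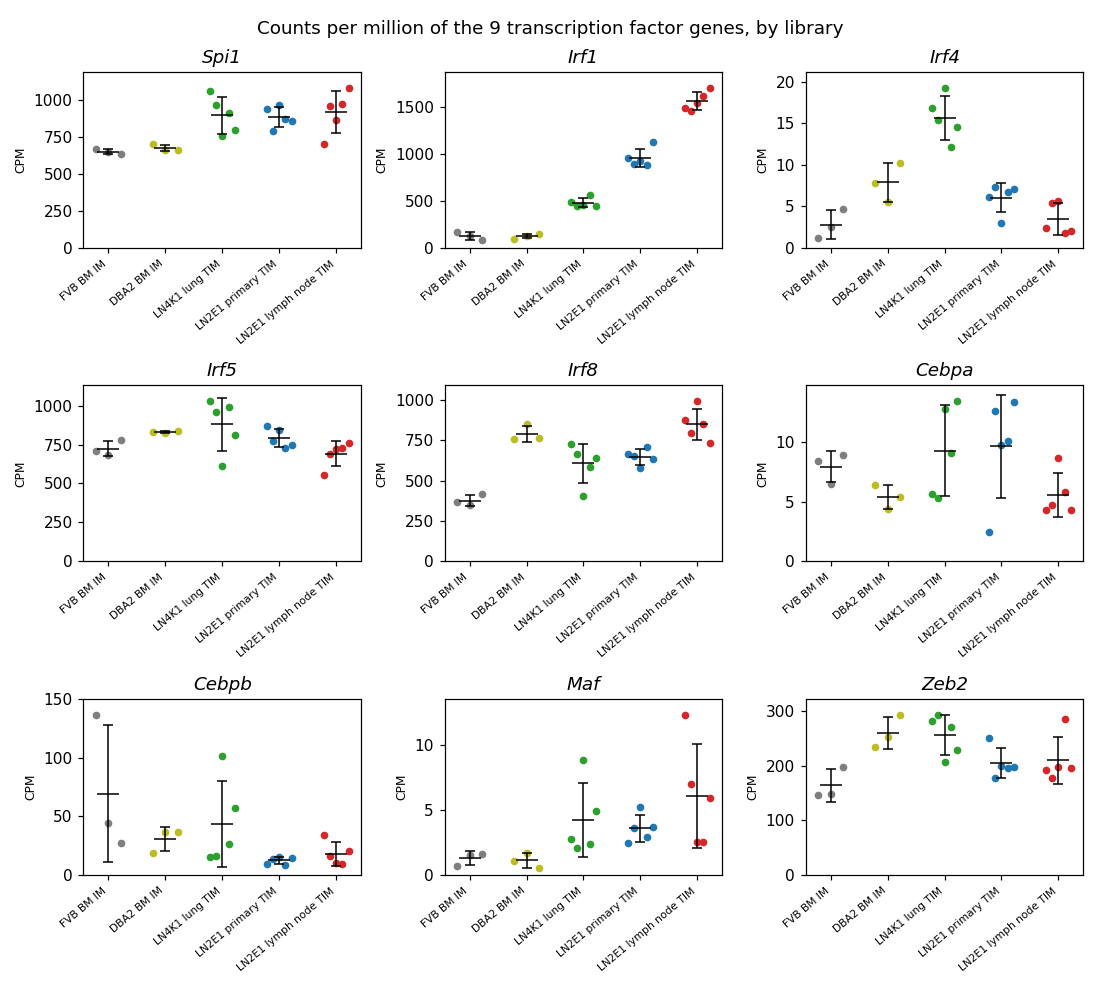
CPM (y axis, from 0, own scale for each gene) of the 9 genes in the 21 libraries, by group (x axis); points are libraries and bars are the mean and SD. Irf1 separates the TIM groups from each other and from BM IMs, with BM IMs at 88.1 to 169 CPM and lymph node TIMs at 1453 to 1699 CPM. For Irf5, each TIM group overlaps with the BM IMs of its strain.

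The promoter of Irf1 is shown because Irf1 was the member that rose in all 3 TIM comparisons. The window is the 250 bases before the first transcript start of Irf1, chr11:53769764-53770013 on the forward strand of GRCm38.p6, from RefSeq, and the gene runs from 53770014 to 53778374. Capitals mark a TTCNNNGAA match, the spacing of an interferon-γ activated (GAS) element, 90 to 82 bases before the start, and a kappa-B match 13 to 4 bases before it.
Irf1 promoter: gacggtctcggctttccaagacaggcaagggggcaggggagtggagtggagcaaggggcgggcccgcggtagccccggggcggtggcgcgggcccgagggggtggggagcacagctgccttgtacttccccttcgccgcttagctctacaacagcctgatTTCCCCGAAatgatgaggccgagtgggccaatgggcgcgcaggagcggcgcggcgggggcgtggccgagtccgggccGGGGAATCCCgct
Of 32851 promoter windows of this length, 7.02% held TTCNNNGAA and 3.9% held a kappa-B match on either strand, so that such matches are common, and a match is only a match of letters. The Irf8 promoter, chosen after its values were seen because Irf8 rose in the LN2E1 TIMs and not in the LN4K1 TIMs, is chr8:120736108-120736357 on the forward strand, with 2 TTCNNNGAA matches in capitals, 171 to 163 and 153 to 145 bases before the start at 120736358.
Irf8 promoter: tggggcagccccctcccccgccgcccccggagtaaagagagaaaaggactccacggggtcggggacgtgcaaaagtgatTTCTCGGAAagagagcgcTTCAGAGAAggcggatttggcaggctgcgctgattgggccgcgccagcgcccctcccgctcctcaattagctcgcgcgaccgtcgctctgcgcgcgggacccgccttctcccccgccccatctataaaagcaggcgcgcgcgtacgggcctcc
The other motifs sought were GAAANNGAA (in 7.13% of windows), GAGGAAGT (2.44%), TTGCNNAA (9.56%) and CACCTG (17.2%), and the Irf1 and Irf8 windows shown held none of them on either strand. TTCNNNGAA also matched in the overlapping windows of the Zeb2 starts at 45113279 and 45113253, and Zeb2 passed no TIM comparison. The windows of the later Irf1 start at 53770473 and the later Irf8 start at 120738639 held no TTCNNNGAA match.

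The IRF members behaved differently from one another. Irf1 stood at 169, 129.9 and 88.1 CPM in the 3 FVB BM IM libraries, and at 98.9, 129.7 and 147 CPM in the DBA2 ones. LN4K1 lung TIMs had 487, 441, 459.7, 557 and 449 CPM. LN2E1 primary tumor TIMs had 959, 890.0, 928, 877 and 1123 CPM, and lymph node TIMs 1490.0, 1453, 1537, 1610.0 and 1699 CPM. The 3 TIM groups did not overlap with each other or with BM IMs, and both marrow groups overlapped. The log2 fold change of Irf1 was 2.87 ± 0.20 (SE) in primary tumor TIMs (adjusted p = 2.59e-06), 3.60 ± 0.21 in lymph node TIMs (adjusted p = 1.57e-06) and 1.86 ± 0.16 in lung TIMs (adjusted p = 3.76e-05), which is a 7.32-, 12.1- and 3.62-fold rise. Exact two-sided permutation tests on log2 CPM gave 0.0179 in each, the smallest p that 5 libraries against 3 can give. Lymph node TIMs exceeded primary tumor TIMs by 0.72 ± 0.09 (adjusted p = 0.00073; exact permutation p = 0.00794, the smallest possible for 5 against 5). The rise in primary tumor TIMs was larger than that in lung TIMs by 1.03 ± 0.24 on the log2 scale (adjusted p = 0.00616). Irf1 kept its direction and an adjusted p under 0.05 when any 1 library was left out of these comparisons.

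Genes described as IRF1 targets moved the same way. All 11 listed targets rose in primary tumor TIMs and in lymph node TIMs, and 9 of 11 rose in lung TIMs, with median log2 fold changes of 2.69, 3.03 and 1.87. Of all genes tested, 33.3%, 20.2% and 13.9% rose in these comparisons. The listed targets have other regulators as well, and the part of IRF1 in their change was not tested. Gbp2, a guanylate-binding protein of the interferon response, averaged 21.5 ± 11.5 CPM (SD) in FVB BM IMs, 912 ± 73.8 CPM in primary tumor and 1534 ± 337 CPM in lymph node TIMs. Cxcl10, a chemokine for activated T cells, had log2 fold changes of 6.03 ± 0.26, 6.40 ± 0.27 and 3.07 ± 0.29 in primary tumor, lymph node and lung TIMs. Socs1, the feedback inhibitor of JAK-STAT signaling, rose by 5.38 ± 0.23 in lymph node TIMs and was higher there than in primary tumor TIMs (adjusted p = 0.00229), as was Gbp2, by 0.76 ± 0.15 (adjusted p = 0.00704). Ciita, the activator of MHC class II genes, rose by 4.62 ± 0.40 in primary tumor and 3.72 ± 0.39 in lung TIMs. In the LN2E1 primary tumor TIMs 6 of the 11 targets rose more than in LN4K1 lung TIMs, and 0 rose less, against 13.2% and 13.3% of all genes. In lymph node against primary tumor TIMs 5 of 11 were higher and 0 lower, against 6.15% and 5.55% of all genes.

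Irf8 differed between the strains before any tumor. Its level was 369, 347 and 415 CPM in FVB and 760.0, 848 and 762 CPM in DBA2 BM IMs, a log2 difference of 1.09 ± 0.11 (adjusted p = 0.000514) between groups that did not overlap. Primary tumor TIMs had 665, 656, 576, 711 and 632 CPM and lymph node TIMs 873, 796, 991, 849 and 735 CPM. All 10 LN2E1 TIM libraries lay above the FVB BM IMs, with log2 fold changes of 0.76 ± 0.10 (adjusted p = 0.00014) and 1.17 ± 0.13 (adjusted p = 9.74e-05). LN4K1 lung TIMs had 730.1, 667, 407, 586 and 643 CPM, all below the 3 DBA2 BM IM libraries, yet the log2 fold change of -0.46 ± 0.18 had an adjusted p of 0.0896; without lung TIM replicate 3, the lowest of them, it was -0.34 with an adjusted p of 0.0188. The change of Irf8 differed between the LN2E1 primary tumor and LN4K1 lung comparisons by 1.23 ± 0.21 (adjusted p = 0.00116). In lymph node against primary tumor TIMs Irf8 was higher by 0.40 ± 0.09 (adjusted p = 0.0189), and 0.38 with an adjusted p of 0.0567 without primary tumor TIM replicate 5. By mean level, FVB BM IMs (377 ± 34.6 (SD, n = 3) CPM) were lowest, followed by lung and primary tumor TIMs, which overlapped, and then DBA2 BM IMs (790.2 ± 50.3 (SD, n = 3) CPM) and lymph node TIMs (849 ± 95.8 (SD, n = 5) CPM), which overlapped as well.

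Of 6 genes described as IRF8 targets, 4 rose in primary tumor and 4 in lymph node TIMs, and 2 of 5 tested rose in lung TIMs. Of all genes tested, 33.3%, 20.2% and 13.9% rose there. Ctsc, the protease that activates granule serine proteases, rose in all 3 TIM groups, by 1.22 ± 0.14 in primary tumor and 1.09 ± 0.18 in lung TIMs. Since dendritic cells also express Irf8, their markers (Flt3, Zbtb46, Cd209a, Xcr1, Clec9a, Ccr7 and Siglech) are given beside it. They summed to 78.5 to 89.4 CPM in FVB and 93.3 to 109 CPM in DBA2 BM IMs, and to 129 to 347 CPM in lung, 162 to 322 CPM in primary tumor and 86.3 to 612 CPM in lymph node TIMs. Of these 7 markers, 5 rose in primary tumor TIMs, 4 in lymph node TIMs and 2 in lung TIMs. In lung TIMs 1 fell, where 11% of all genes fell. No marker was at 0 in a whole group. Their part in the level of Irf8 was not tested.

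Irf5 was abundant in every group and passed the test in none of the TIM comparisons. Its group means were 724 ± 49.3 (SD, n = 3) CPM in FVB BM IMs, 829 ± 7.02 (SD, n = 3) CPM in DBA2 BM IMs, 880.2 ± 171 (SD, n = 5) CPM in lung, 792 ± 60.9 (SD, n = 5) CPM in primary tumor and 691 ± 79.2 (SD, n = 5) CPM in lymph node TIMs. Its log2 fold changes in the 3 TIM comparisons were 0.11 ± 0.10, -0.07 ± 0.12 and 0.01 ± 0.17, with adjusted p of 0.35, 0.707 and 0.971. The DBA2 BM IM libraries all lay above the FVB ones, with a log2 difference of 0.22 ± 0.09 (adjusted p = 0.131). Without FVB replicate 3 that difference was 0.29 (adjusted p = 0.0111). The lowest lung TIM value, 611 CPM, came from replicate 3, and the lowest lymph node value, 557 CPM, from replicate 1. Against 33.3%, 20.2% and 13.9% of all genes, 4 of 5 tested genes described as IRF5 targets rose in primary tumor, 2 of 4 in lymph node and 2 of 3 in lung TIMs. Among them Tnf, the inflammatory cytokine, rose by 2.26 ± 0.13, 2.82 ± 0.18 and 1.15 ± 0.21. Of the exon bases of Irf5, 14.2% overlap Tnpo3 on the opposite strand, and in these libraries without strand the reads of that stretch cannot be assigned to 1 gene; Tnpo3 did not pass the test in any comparison.

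Irf4 was the least abundant IRF member. It stood at 1.18, 2.56 and 4.65 CPM in FVB BM IMs and at 7.80, 5.58 and 10.3 CPM in DBA2 BM IMs. Lung TIMs had 16.8, 15.4, 19.3, 12.1 and 14.5 CPM, every library above those of all other groups. The rise in lung TIMs was 0.91 ± 0.24 on the log2 scale (adjusted p = 0.022; exact permutation p = 0.0179); it had adjusted p of 0.0757 without DBA2 replicate 1 and 0.0877 without DBA2 replicate 2, and 0.119 with all 5 groups in 1 fit. Primary tumor TIMs had 6.13, 7.28, 2.95, 6.77 and 7.14 CPM and lymph node TIMs 2.46, 5.37, 5.68, 1.82 and 2.03 CPM, both overlapping FVB BM IMs, with log2 fold changes of 1.08 ± 0.45 (adjusted p = 0.0602) and 0.31 ± 0.64 (adjusted p = 0.75). The value for primary tumor TIMs passed with DESeq2 (1.14, adjusted p = 0.0172), with DESeq2 size factors in edgeR (adjusted p = 0.0488), with all 5 groups in 1 fit (0.0482), and without FVB replicate 3 (1.69, adjusted p = 0.00922) or primary tumor TIM replicate 3 (1.25, adjusted p = 0.0267). The change did not pass the test of a difference between LN2E1 primary tumor and LN4K1 lung TIMs (0.19 ± 0.51, adjusted p = 0.849). Since plasma and dendritic cells express Irf4, the B and plasma cell markers are given beside it. They summed to 24.0 to 32.1 CPM in DBA2 BM IMs, where Pax5 was at 0, and to 43.6 to 59.1 CPM in lung TIMs, with 1 of 5 tested markers higher, while the LN2E1 TIMs, with less Irf4, had 78.9 to 442 CPM. Their part in the level of Irf4 was not tested. Of 4 genes described as IRF4 targets, 3 rose in primary tumor TIMs, 0 of 3 tested in lymph node TIMs and 2 of 4 in lung TIMs. The shares of all genes that rose there were 33.3%, 20.2% and 13.9%. Chil3, a chitinase-like protein of alternatively activated macrophages, rose by 0.99 ± 0.26 in primary tumor TIMs.

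Of 5 IRF genes outside the 9, 4 rose and 1 fell in primary tumor TIMs, where 33.3% of all genes rose and 28.6% fell. In lymph node TIMs 3 of 4 tested rose and 1 fell, against 20.2% and 17.2% of all genes, and in lung TIMs 0 of 5 passed, against 13.9% and 11%. By the test of the difference itself, the change of 3 of the 5 (Irf2, Irf7 and Irf9) was higher in LN2E1 primary tumor than in LN4K1 lung TIMs, against 13.2% of all genes. Irf7, the master factor of type I interferon genes, stood at 93.5 ± 17.6 CPM in FVB BM IMs against 684 ± 71.0 CPM in primary tumor and 1106 ± 188 CPM in lymph node TIMs, with log2 fold changes of 2.85 ± 0.15 and 3.57 ± 0.20. DBA2 BM IMs already had 279 ± 47.4 CPM and lung TIMs 422 ± 126 CPM, a log2 fold change of 0.53 ± 0.26 (adjusted p = 0.171). Irf3, which is not induced by interferon, was the relative that fell, by 0.49 and 0.68 in the LN2E1 TIMs. Among partners and regulators, Batf2, a partner of IRF1, rose in all 3 TIM groups, by 4.31 ± 0.21, 4.39 ± 0.26 and 2.82 ± 0.26. Batf3, a partner of IRF8 in dendritic cells, rose by 2.06 ± 0.22 in lung TIMs, from 9.45 ± 0.700 to 41.5 ± 10.8 CPM. In all, 6 of 9 partners rose and 1 fell in primary tumor TIMs, 5 rose and 0 fell in lymph node TIMs, and 4 rose and 0 fell in lung TIMs.

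**Figure D3:**
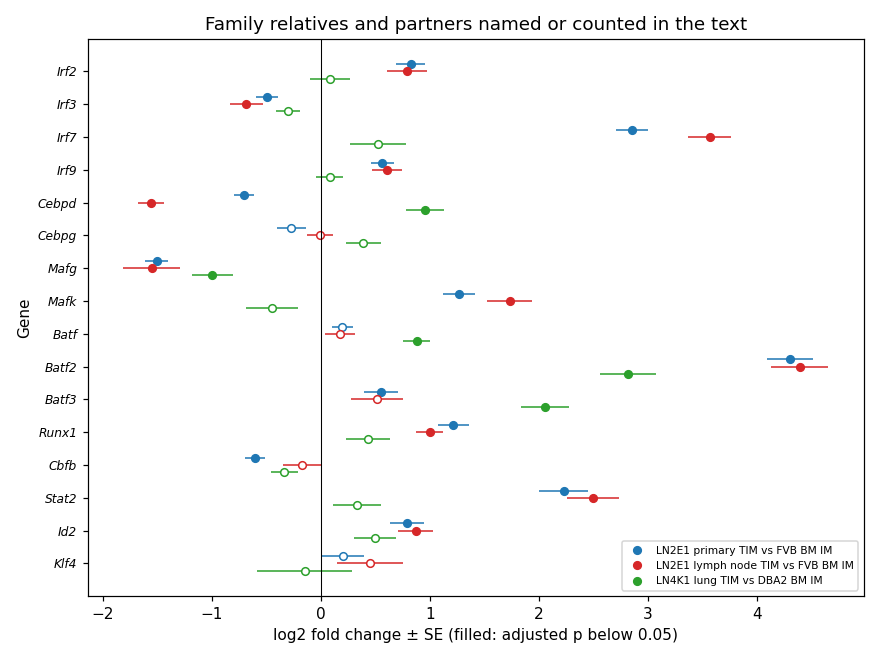
Log2 fold changes (x axis, bars give the approximate standard error) of family relatives and partners with a mean log2 CPM above 3 (y axis) in the 3 TIM comparisons; filled points have an adjusted p under 0.05. Irf7 lies at 2.85 and 3.57 in LN2E1 TIMs and at 0.53 in LN4K1 lung TIMs, and Cebpd falls in LN2E1 TIMs and rises in lung TIMs.

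Spi1 rose by a small amount in the LN2E1 TIMs. It stood at 669.6, 646 and 634 CPM in FVB BM IMs and 699.7, 660.2 and 661 CPM in DBA2 BM IMs, among the tightest values of any member. Primary tumor TIMs had 939, 787, 961, 870.5 and 853 CPM, lymph node TIMs 701, 955, 863, 972 and 1079 CPM and lung TIMs 1054, 962, 752, 912 and 791 CPM. No TIM library overlapped with the BM IMs of its strain. The log2 fold changes were 0.42 ± 0.09 (adjusted p = 0.00249) and 0.49 ± 0.14 (adjusted p = 0.0187) in primary tumor and lymph node TIMs, a 1.34- and 1.41-fold rise, and 0.33 ± 0.14 (adjusted p = 0.107) in lung TIMs. Leaving out FVB replicate 1, 2 or 3 moved the adjusted p in lymph node TIMs to 0.0588, 0.0787 or 0.053, and leaving out lung TIM replicate 3 moved that in lung TIMs to 0.0188.

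Of 11 genes described as PU.1 targets, 8 rose and 1 fell in both LN2E1 comparisons, and 4 rose and 1 fell in lung TIMs, with median log2 fold changes of 0.81, 0.73 and 0.45. In primary tumor, lymph node and lung TIMs 33.3%, 20.2% and 13.9% of all genes rose and 28.6%, 17.2% and 11% fell. Fcgr1, the high-affinity IgG receptor, which interferon-γ also induces, had 15.6 ± 6.25 CPM in FVB BM IMs and 350.4 ± 53.4 CPM in primary tumor TIMs, and rose by 2.34 ± 0.17 on the log2 scale in lung TIMs. Tlr4, the endotoxin receptor, rose by 2.40 ± 0.20, 2.18 ± 0.25 and 2.28 ± 0.19. Ncf1, a cytosolic subunit of the phagocyte NADPH oxidase, was the target that fell, by 0.84, 1.26 and 0.62.

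Cebpb fell in the LN2E1 TIMs, and it was also the member that varied most between libraries of a group. FVB BM IMs had 136, 44.6 and 27.1 CPM and DBA2 BM IMs 18.5, 36.3 and 36.3 CPM. Primary tumor TIMs had 8.99, 13.96, 15.3, 8.78 and 14.6 CPM, all below the FVB libraries, a log2 fold change of -2.50 ± 0.45 (adjusted p = 0.00117). Without FVB replicate 1, the highest library, it was -1.54 (adjusted p = 0.0015). Lymph node TIMs had 34.1, 16.2, 9.91, 9.15 and 20.8 CPM and overlapped with FVB BM IMs. The log2 fold change there, -1.94 ± 0.55 (adjusted p = 0.0189; exact permutation p = 0.0536), was -0.99 with an adjusted p of 0.17 without FVB replicate 1. Lung TIMs had 15.3, 15.9, 102, 26.3 and 56.9 CPM and spanned the DBA2 BM IMs (0.42 ± 0.62, adjusted p = 0.673). The change differed between LN2E1 primary tumor and LN4K1 lung TIMs by -2.90 ± 0.84 (adjusted p = 0.0195), and by -2.04 (adjusted p = 0.0871) without FVB replicate 1 and -2.65 (adjusted p = 0.0554) without DBA2 replicate 1. Of the Cebpb exon bases, 20.7% overlap Tmem189 on the opposite strand, whose counts rose by 0.97 ± 0.16 in primary tumor TIMs while those of Cebpb fell.

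Genes described as C/EBPβ targets rose in the same TIMs. All 7 listed targets rose in primary tumor TIMs, 6 of 6 tested in lymph node TIMs and 5 of 6 in lung TIMs. Among all genes tested the shares that rose were 33.3%, 20.2% and 13.9%. Il1b, the inflammasome cytokine, averaged 8.86 ± 1.17 CPM in FVB BM IMs, 1847 ± 346 CPM in primary tumor and 1094 ± 149 CPM in lymph node TIMs. Lung TIMs had 1550.0 ± 739 CPM of Il1b where DBA2 BM IMs had 10.4 ± 8.36 CPM. Saa3, an acute-phase protein, went from 0.454 ± 0.116 to 309 ± 212 CPM in primary tumor TIMs. Ptgs2, the prostaglandin synthase COX-2, rose by 4.13 ± 0.22, 2.71 ± 0.29 and 1.76 ± 0.31. The lists of targets share genes (Il6 and Il10 among them), and these genes have other regulators as well.

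Cebpa was low, and no comparison passed the test with all libraries. It had 8.39, 6.47 and 8.93 CPM in FVB BM IMs, 2.49, 12.5, 9.69, 10.0 and 13.3 CPM in primary tumor TIMs and 4.30, 4.76, 8.67, 5.84 and 4.30 CPM in lymph node TIMs. DBA2 BM IMs had 6.41, 4.42 and 5.42 CPM and lung TIMs 5.61, 5.34, 12.8, 9.06 and 13.4 CPM. The log2 fold changes were 0.26 ± 0.44, -0.51 ± 0.35 and 0.69 ± 0.35 in primary tumor, lymph node and lung TIMs, with adjusted p of 0.635, 0.291 and 0.185. Without primary tumor TIM replicate 1, its lowest library, the primary tumor value was 0.50 (adjusted p = 0.048), and lymph node TIMs lay below primary tumor TIMs by a log2 difference of -1.03 (adjusted p = 0.0399). Of 7 genes described as its targets, 6 fell in primary tumor TIMs, 5 in lymph node and 5 in lung TIMs, against 28.6%, 17.2% and 11% of all genes. The primary granule genes Mpo, Elane, Ctsg and Prtn3 fell in all 3, and the others that fell are genes for transcription factors, such as Cebpe (-1.38 ± 0.36 in primary tumor TIMs). Mpo, myeloperoxidase, had 1372 ± 147 CPM in FVB BM IMs and 2.35 ± 2.16 CPM in primary tumor TIMs. In DBA2 mice it had 1616 ± 98.3 CPM in BM IMs and 53.5 ± 22.4 CPM in lung TIMs. Elane, neutrophil elastase, went from 484 ± 49.1 to 1.31 ± 0.872 CPM in primary tumor TIMs. These granule genes are also 4 of the 8 neutrophil precursor markers, all 8 of which fell in primary tumor and lung TIMs. Csf3r, the G-CSF receptor, was the target that rose, by 1.04 ± 0.15 in primary tumor and 0.65 ± 0.16 in lymph node TIMs. It is also among the mature neutrophil markers.

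Of the other C/EBP genes, Cebpd, an acute-phase factor, fell by 0.71 in primary tumor and by 1.56 in lymph node TIMs, and rose by 0.95 ± 0.17 in lung TIMs (adjusted p = 0.00331). Its change differed between the LN2E1 primary tumor and LN4K1 lung comparisons by -1.64 ± 0.19 (adjusted p = 7.75e-05), the same sign of difference as for Cebpb. Its levels were 214 ± 24.2 CPM in FVB BM IMs, 133 ± 6.61 CPM in primary tumor and 72.4 ± 5.98 CPM in lymph node TIMs. DBA2 BM IMs had 179.9 ± 35.2 CPM where lung TIMs had 368 ± 59.3 CPM.

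Maf rose in both LN2E1 TIM groups from a very low level. FVB BM IMs had 0.682, 1.56 and 1.62 CPM and DBA2 BM IMs 1.07, 1.73 and 0.549 CPM, or 52 to 181 counts a library. Primary tumor TIMs had 2.49, 3.64, 5.26, 2.93 and 3.70 CPM, lymph node TIMs 12.3, 6.98, 2.57, 2.55 and 5.93 CPM and lung TIMs 2.76, 2.10, 8.90, 2.35 and 4.93 CPM. All TIM libraries lay above the BM IMs of their strain. The log2 fold changes were 1.46 ± 0.39 (adjusted p = 0.00883), 2.24 ± 0.67 (adjusted p = 0.0252) and 1.83 ± 0.60 (adjusted p = 0.0526; 0.00594 with DESeq2 and 0.027 with all 5 groups in 1 fit) in primary tumor, lymph node and lung TIMs. In lung TIMs Maf was at 2.02 (adjusted p = 0.0442) without lung TIM replicate 2 and at 1.36 (adjusted p = 0.0456) without replicate 3. In lymph node TIMs the adjusted p was 0.101, 0.071 or 0.0515 without FVB replicate 1, 2 or 3. Mafg, a small MAF protein without an activation domain, fell in all 3 TIM comparisons, by 1.51 and 1.55 in primary tumor and lymph node TIMs. Of the MAF relatives 3 of 4 tested rose and 1 fell in each LN2E1 comparison, and 2 rose and 1 fell in lung TIMs. Among all genes, 33.3%, 20.2% and 13.9% rose in primary tumor, lymph node and lung TIMs, and 28.6%, 17.2% and 11% fell.

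Of 5 genes described as MAF targets, 1 rose in each LN2E1 comparison, where 33.3% of all genes rose in primary tumor and 20.2% in lymph node TIMs. C1qc, a chain of complement C1q, fell in lung TIMs (-1.02 ± 0.29). Macrophage markers (Adgre1, C1qa, C1qb, C1qc, Mrc1, Mertk and Apoe) summed to 1290.0 to 1440.0 CPM in FVB and 865 to 2040.0 CPM in DBA2 BM IMs, and to 2310.0 to 3010.0, 2360.0 to 3770.0 and 3920.0 to 5570.0 CPM in primary tumor, lymph node and lung TIMs. These sums mainly follow Apoe, with a mean log2 CPM of 11.1, before Adgre1 at 7.54. C1qa, C1qb and C1qc did not pass the test in either LN2E1 comparison. Their means were 7.77, 12.7 and 11.3 CPM in DBA2 BM IMs and 3.83, 7.76 and 5.85 CPM in lung TIMs. Of the 7 macrophage markers, 3 rose in primary tumor, 2 in lymph node and 2 in lung TIMs, where 1 fell, and none was at 0 in a whole group. Of all genes tested in lung TIMs, 13.9% rose and 11% fell. The part of macrophages in the level of Maf was not tested.

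Zeb2 differed between the strains and did not pass the test between TIMs and BM IMs. FVB BM IMs had 146, 148 and 198 CPM and DBA2 BM IMs 235, 253 and 293 CPM, a log2 difference of 0.69 ± 0.15 (adjusted p = 0.0174). The adjusted p of that difference lay between 0.0504 and 0.0777 without FVB replicate 1 or 2 or DBA2 replicate 2 or 3. TIMs had 205 ± 27.3 (SD, n = 5) CPM in primary tumor, 210.3 ± 43.4 (SD, n = 5) CPM in lymph node and 257 ± 36.7 (SD, n = 5) CPM in lung. The log2 fold changes, 0.30 ± 0.14, 0.36 ± 0.18 and -0.10 ± 0.15, had adjusted p of 0.102, 0.161 and 0.694. The primary tumor value passed with DESeq2 (0.35, adjusted p = 0.043) and without FVB replicate 3 (0.47, adjusted p = 0.00996). Cdh1, E-cadherin, which ZEB2 is known to repress, rose from 1.67 ± 0.381 to 52.5 ± 12.6 CPM in primary tumor TIMs and ranged from 1.11 to 37.2 CPM in lung TIMs. Epithelial markers, Cdh1 included, summed to 1.29 to 2.05 CPM in FVB BM IMs, where Krt5, Krt14 and Trp63 were at 0. In primary tumor TIMs they summed to 54.9 to 93.3 CPM. Cdh1 itself makes up most of these sums, so they are not a separate measure of epithelial cells. The part of such cells was not tested. Nr1h3, the oxysterol receptor LXRα, described as a ZEB2 target in macrophages, rose by 2.68 ± 0.21, 3.08 ± 0.27 and 2.16 ± 0.46.

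Between lymph node and primary tumor TIMs 2 of the 9 members, Irf1 and Irf8, were higher and 0 lower, where 6.15% of all genes were higher and 5.55% lower. Between DBA2 and FVB BM IMs 2 members, Irf8 and Zeb2, were higher and 0 lower, against 11.5% and 9.57%. Irf4 was higher in every DBA2 library as well, 2.84-fold (adjusted p = 0.0555; 0.00843 with DESeq2 and 0.00597 without FVB replicate 3). With 3 libraries against 3 the permutation test cannot go below 0.1. The changes of 2 members, Irf1 and Irf8, were higher and that of 1, Cebpb, lower in LN2E1 primary tumor than in LN4K1 lung TIMs, each relative to its own BM IMs, against 13.2% and 13.3% of all genes. For Irf8 the starting levels differed, and every DBA2 BM IM library held more Irf8 than every primary tumor TIM library.

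**Figure D4:**
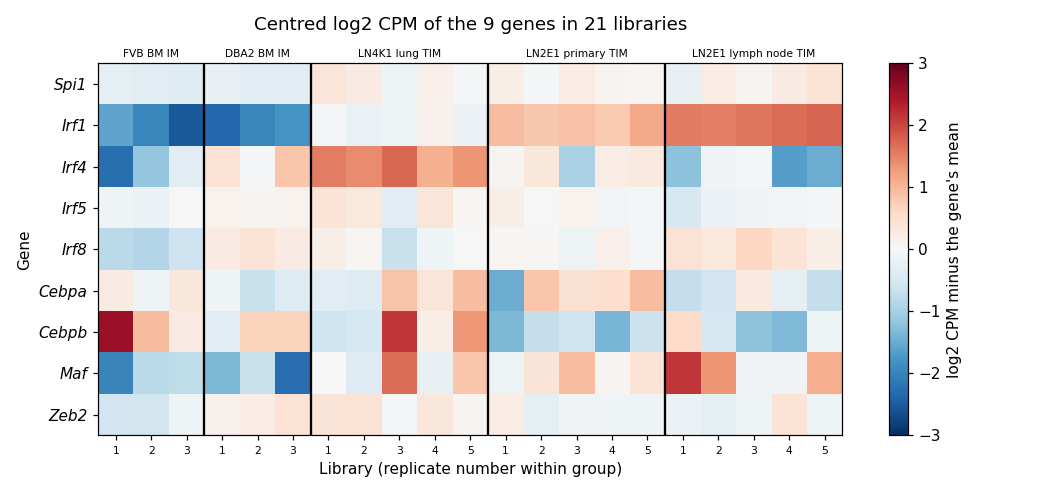
Log2 CPM of the 9 genes (y axis) in the 21 libraries (x axis, ordered by group), each gene centred on its mean over all libraries; red is above and blue below that mean, with the scale ending at 3. Irf1 follows the groups, Cebpb and Maf vary within groups, and Spi1, Irf5 and Zeb2 stay near 0.

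The spread between libraries of a group split the members. The within-group SD of log2 CPM, pooled over the 5 groups, was 0.17 for Spi1, 0.19 for Irf5, 0.20 for Irf8 and 0.22 for Irf1 and Zeb2, and 0.62 for Irf4, 0.64 for Cebpa, 0.78 for Maf and 0.87 for Cebpb. Low levels go with a larger spread in all genes: the median SD was 0.21 for the 499 genes with a mean log2 CPM from 8 to 10, 0.27 for 3762 genes from 4 to 6 and 0.91 for 1577 genes from 0 to 2. Cebpb, with a mean log2 CPM of 4.52, exceeded 99.0% of the genes between 4 and 6, whereas Maf exceeded 41.7% of the genes of its level. Cebpb and Cebpa are genes of 1 exon, and their transcripts have a GC content of 67.2% and 62.6%, beside a median of 49.1% over 21901 coding genes. In each of the 5 groups the library with the most Cebpb was the one with the fewest genes detected, although DBA2 replicates 2 and 3 were level at 36.3 CPM. Maf had its highest value in that library in the 3 TIM groups and in DBA2 BM IMs, with 12.3 CPM in lymph node TIM replicate 1 and 8.90 CPM in lung TIM replicate 3. The ribosomal RNA gene Rn45s took 2.04% of counts in FVB BM IM replicate 1, which had the highest Cebpb of all libraries, 1% and 0.623% in the other FVB BM IMs and at most 0.207% elsewhere. The part of these library properties in the levels of Cebpb and Maf was not tested.

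**Figure D5:**
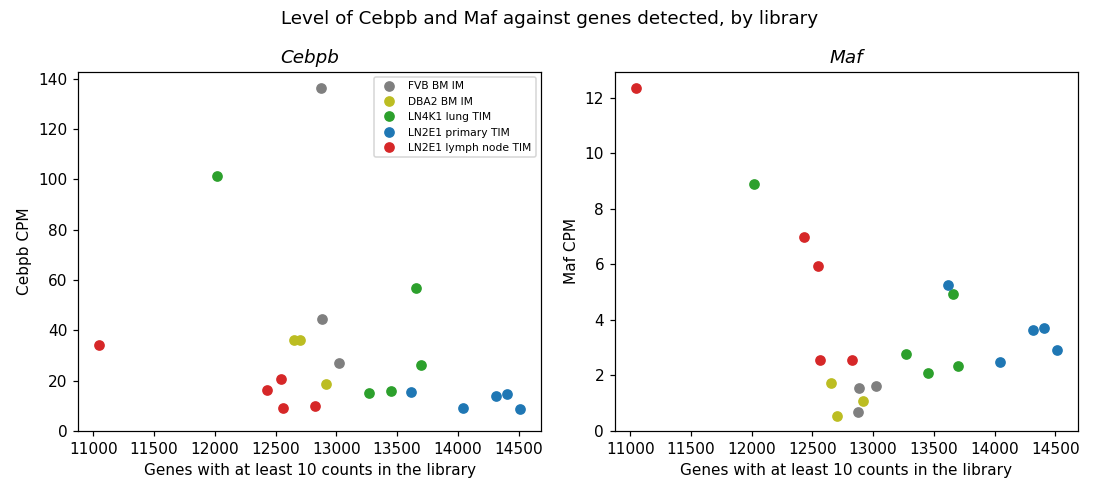
CPM (y axis, from 0) of Cebpb and Maf against the number of genes with at least 10 counts (x axis, not from 0) in each of the 21 libraries, colored by group. FVB BM IM replicate 1 (136 CPM) and lung TIM replicate 3 (102 CPM) stand above the rest for Cebpb, and lymph node TIM replicate 1, with 11047 genes, is highest for Maf at 12.3 CPM.

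The genes with a pattern closest to each member were sought among the 8016 genes whose mean log2 CPM exceeded 3, by the root-mean-square difference of centred log2 CPM over the 21 libraries. Irf1 was closest to Pde4b, a cAMP phosphodiesterase (0.27), Irgm1, an interferon-γ inducible GTPase (0.32), and Gyk, glycerol kinase (0.33), small against its own range of 4.27. Spi1 was closest to Nrbp1 (0.11) and Adipor1, an adiponectin receptor (0.12), and Zeb2 to Csf2ra, the GM-CSF receptor α chain (0.16), Scyl3 (0.17) and Lrrc45 (0.17). Irf5 was closest to Ing5 (0.11), Slc39a7 (0.12) and Ptpn6, the phosphatase SHP-1 (0.12), and Irf8 to 9930111J21Rik1 (0.23), Abca7 (0.23) and Adcy7 (0.24). Cebpb had Hnrnpd, an RNA-binding protein, at 0.36, then Mark3 (0.53) and Lemd2 (0.56), and Maf had Picalm (0.54), Marcks (0.56) and Msr1, a scavenger receptor of macrophages (0.60). Cebpa was closest to Map7d1 (0.40), Ldb1 (0.41) and Ctbp1 (0.43), and Irf4 to Rhob (0.63), Hyou1 (0.66) and 3110021N24Rik (0.69). Among the members themselves, Irf5 and Zeb2 had the smallest distance (0.23), followed by Spi1 and Irf5 (0.25). The SD over the 21 libraries was 0.21 for Irf5, 0.25 for Spi1 and 0.30 for Zeb2. Genes that vary this little lie near each other by this measure without a shared pattern. These distances share the libraries and their depth and are descriptions without a test.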

How the data were processed

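Sorted IMs of 5 groups (21 libraries) were compared. The authors made non-stranded libraries with an ultra-low-input amplification kit, trimmed reads with BBDuk, aligned them with BBMap to mm10 (GRCm38) and counted them with featureCounts 1.5.2 of Subread, with SAMtools 1.8 among the tools. The deposited values are raw counts per gene symbol, and they were used without change. Groups follow the sample labels. The 9 members and all gene lists were chosen with earlier results of these data known.

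For each comparison, its libraries alone were fitted in edgeR 4.0.16 (limma 3.58.1, R 4.3.3) with TMM factors, the default filter (minimum count 10, minimum total 15) and the robust quasi-likelihood F test, with Benjamini-Hochberg adjustment over all genes tested. The difference of change between LN2E1 primary tumor and LN4K1 lung TIMs is an interaction contrast over 4 groups. The standard error is the absolute log2 fold change over the square root of F and is approximate. TMM factors of the 21 libraries scaled the CPM, and a prior count of 2 went into log2 CPM. Single values had two-sided exact permutation tests of log2 CPM over 56 (5 against 3), 252 (5 against 5) or 20 (3 against 3) splits. RPKM divides CPM by the union of GENCODE exons. Promoters are RefSeq windows of 250 bases; 7 of 9 members had one. Fits were tested on simulated counts.

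Named genes of the lists are up to 3 in each direction by absolute log2 fold change, with adjusted p under 0.05 and a mean log2 CPM above 3. Alternatives were DESeq2 1.42.0 (shrunken and unshrunken) and its size factors, no filter, all groups in 1 fit, a replicate block and leaving out each library. Depth was 80772922 to 101043568 counts a library, so that 3 counts, the limit a count of 0 allows, correspond to at most 0.0405 CPM, for counting error only. Tables and figures used Python 3.11.15, numpy 2.4.6, pandas 2.3.3 and matplotlib 3.10.9. Ly6g was not analysed here, and some genes of the lists are counted but not reported by name.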

Additional observations from a re-analysis of the deposited data

Results flagged for a closer look

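In 27 groups of 5 values (9 members in 3 TIM groups), 2 values stood apart from the others by Dixon's test at the 95% level, where chance gives about 1 in 20. Irf4 was lowest in primary tumor TIM replicate 3, at 2.95 CPM, with the other 4 libraries between 6.13 and 7.28 CPM. Zeb2 was highest in lymph node TIM replicate 4, at 287 CPM, with the others between 178 and 199 CPM.

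For 3 members the change in LN2E1 primary tumor TIMs differed from that in LN4K1 lung TIMs by the interaction test of edgeR. The differences of log2 fold change were 1.03 for Irf1 (adjusted p = 0.00616), 1.23 for Irf8 (adjusted p = 0.00116) and -2.90 for Cebpb (adjusted p = 0.0195). Irf1 rose in both models, and Irf8 rose in the first and not, by the test, in the second. Strain, cancer line, route and site differ together between the models and cannot be told apart.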

How the results depend on the processing

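No direction of a called member turned under any alternative run. Of 176 fits that left 1 library out of a comparison in which a member had passed the test, 160 kept the call and 16 lost it, and 11 of 328 fits of members that had not passed gained one. Over the other settings, 106 of 111 kept the call and 5 lost it, and 14 of 204 gained one; signs of values without a call differed in 16 and 4. Scaling by DESeq2 size factors moved no median of all genes by more than 0.1. The labels do not say whether replicate numbers pair the libraries. Deviations of same-numbered libraries correlated between -0.154 and 0.0843, and such weak values cannot decide it. Lymph node replicates 1, 2 and 3 each correlated best with the FVB library of their own number, a hint from the data only. With a replicate block the members changed were 3 in lymph node TIMs, 1 in lung TIMs and 1 in lymph node against primary tumor TIMs, and member DEGs were 0 in all 3 TIM comparisons. The calls lost with it were Spi1 (adjusted p = 0.095) and Maf (0.131) in lymph node TIMs, Irf4 (0.0543) in lung TIMs and Irf8 (0.0894) in lymph node against primary tumor TIMs, and Irf4 between strains gained one (0.0292). DEGs in primary tumor TIMs were 2 with DESeq2, shrunken or not (Irf1 and Cebpb), and members changed in lung TIMs were 4 with all 5 groups in 1 fit (Spi1, Irf1 and Maf higher, Irf8 lower). The causes were not tested; the block leaves fewer residual degrees of freedom.

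Without 1 library, members changed ranged from 2 (without FVB replicate 1) to 5 in lymph node TIMs, from 1 (without DBA2 replicate 1 or 2) to 5 (without lung TIM replicate 3) in lung TIMs, from 5 to 7 in primary tumor TIMs, from 1 (without primary tumor replicate 5) to 3 in lymph node against primary tumor TIMs, from 1 to 4 (without FVB replicate 3) between strains and from 2 to 3 for the difference of change. Without FVB replicate 2 or 3, 3 changed in lymph node TIMs. Member DEGs were 1 in lymph node TIMs without any of the 8 libraries and 0 to 1 in lung TIMs, with 1 only without lung TIM replicate 3. With 3 BM libraries a group, these counts rest on single marrow libraries, and low genes such as Maf and Irf4 have the largest counting and amplification spread.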
